A study of Mus musculus with 2 samples.

Results

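The proteasome genes were followed in single-cell RNA sequencing of sorted mouse haematopoietic stem and progenitor cells (HSPCs). Members were the gene symbols made of Psma, Psmb, Psmc, Psmd, Psme, Psmf or Psmg and a number that reached 1 CPM in either library (CPM is a gene's count scaled to the same total in each library), which gave 49 of the 11638 genes at that level and of the 27998 genes in the matrices. In all, 50 symbols matched. Psmb11, the catalytic subunit of the thymus form, had 0 WT and 1 cKO unique molecular identifiers (UMIs) and was left out. Among the members, Psmc3ip shares the spelling but encodes a meiotic recombination factor, so it is not a proteasome gene. Psme2b is a near copy of the activator gene Psme2, and reads may be split between them.

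The study profiled lineage-depleted bone marrow cells that were Sca-1+ and c-Kit+, from 3-month-old mice, in 2 libraries, 1 of Trmt6 WT cells and 1 of cells with Trmt6 conditionally knocked out (cKO). Trmt6 encodes the non-catalytic partner in the methyltransferase that marks tRNA with m1A. By the labels the WT mice were Trmt6fl/fl and the cKO mice were Trmt6fl/fl with MX1-cre, a recombinase switched on by interferon, whereas the study's outline of the experiment gives Mx1-Cre and injections of pIpC, an interferon inducer, to both genotypes. Recombination under this promoter reaches many blood and other cells and not HSPCs alone. Whether a library pooled several mice is not given in the sources used here. Genotype and library go together, so no difference below has a replicate check, no test was run, and every interval is a 95% interval that covers counting error only.

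The proteasome is the main protease of the cytosol and nucleus. Its 20S core is a barrel of alpha rings, which gate the entry, around beta rings, of which Psmb6, Psmb7 and Psmb5 encode the cutting subunits. In cells of the immune system and after interferon, Psmb9, Psmb10 and Psmb8 take the places of those subunits, in that order, to form the immunoproteasome, which favours peptides that fit MHC class I. The 19S cap recognises ubiquitin, unfolds the substrate with its ATPase ring and removes the ubiquitin chain with its lid. Blood stem cells are known for slow protein synthesis and a low load of damaged protein.

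After cell filtering and removal of likely doublets, 8142 WT cells with 42921705 UMIs and 8477 cKO cells with 88180264 UMIs remained, with a median of 4277 and 10145 UMIs per cell. Levels were therefore compared as CPM of the UMIs summed over a library, and 24 cell barcodes occurred in both libraries. Trmt6 itself had a WT level of 64.0 CPM and a cKO level of 50.3 CPM. The position of the floxed part within the gene is not given in the sources used here, and reads at the 3′ end of a transcript do not check a deletion upstream of them. Neutrophil genes differed widely between the libraries, with a sum over 10 markers of 5831 CPM in WT and 8.06 CPM in cKO and with 2 of the 10 at 0 in cKO. The 10 granulocyte-monocyte progenitor (GMP) markers summed to 9359 and 1357 CPM, with 9 lower, and the 12 haematopoietic stem cell (HSC) markers to 1156 and 1905 CPM, with 9 higher; none of these was at 0. All 12 HSC markers were detected in both libraries and belong to the labelled cell type, whereas the neutrophil genes do not. Values with the same mix of clusters in both libraries, and without clusters of other lineages, are given with the clusters.

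Upstream sequences are shown for Psmb5 and Psmb6, constitutive catalytic genes that were higher in cKO, and for Psmg1, the member with the highest ratio. Psmb7, the remaining constitutive catalytic gene, was higher too (log2 ratio 0.29) but is not shown, and it is not among the members with a match listed below. They come from the RefSeq promoter table for GRCm38.p6, which held windows for 41 of the 49 members, and they end where the first annotated exon begins or at the base before the RefSeq start. Psmb5 lies at chr14:54618023-54618245 (minus strand), Psmb6 at chr11:70525107-70525356 (plus strand) and Psmg1 at chr16:95990961-95991210 (minus strand). Capitals mark matches to an antioxidant response element, TGACNNNGC, in Psmb5 and Psmb6, and to an interferon gamma activated site, TTCNNNGAA, in Psmg1.
Psmb5: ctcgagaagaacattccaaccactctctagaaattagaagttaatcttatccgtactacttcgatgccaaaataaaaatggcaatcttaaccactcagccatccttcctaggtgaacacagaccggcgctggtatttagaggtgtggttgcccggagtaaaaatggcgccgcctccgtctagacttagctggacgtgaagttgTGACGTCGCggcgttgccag
Psmb6: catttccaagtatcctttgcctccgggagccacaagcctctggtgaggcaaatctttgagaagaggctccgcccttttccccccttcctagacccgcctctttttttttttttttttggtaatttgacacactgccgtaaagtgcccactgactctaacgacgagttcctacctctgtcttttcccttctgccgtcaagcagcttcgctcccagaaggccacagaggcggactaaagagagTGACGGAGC
Psmg1: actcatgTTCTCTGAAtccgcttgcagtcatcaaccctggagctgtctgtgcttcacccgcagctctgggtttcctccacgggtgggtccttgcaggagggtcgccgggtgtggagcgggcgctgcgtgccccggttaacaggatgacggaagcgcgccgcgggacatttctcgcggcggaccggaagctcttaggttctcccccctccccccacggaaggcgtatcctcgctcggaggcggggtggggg

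Searched on both strands of the 250 bases before each start, TGACNNNGC, which the factors encoded by Nfe2l1 and Nfe2l2 bind, occurred before 5 of the 41 members (Psmb5, Psmb6, Psmc6, Psmd9 and Psmd12) and before 10.1% of 27025 promoters. The interferon-stimulated response element GAAANNGAAA occurred before 3 members (Psmb3, Psmd4 and Psmd9) and 3.04% of promoters, and TTCNNNGAA before 2 (Psmb8, as TTCCCAGAA between 97 and 89 bases before the RefSeq start, and Psmg1) and 7.18% of promoters. The ATF4 element TGATGNAA occurred before 1 member, Psmd13, and 3.53% of promoters. The interferon element was in neither window of the immunoproteasome genes Psmb8 and Psmb9, both of which lie inside an annotated exon and are not printed. A match is only a match of letters in this window.

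Proteasome transcripts as a whole were slightly more abundant in the cKO library, while 2 of the 3 immunoproteasome genes were less abundant. Members took 0.907% of all UMIs in WT and 0.969% in cKO. The median log2 ratio of the 49 members, cKO over WT, was 0.13, beside -0.08 over the 11638 genes, and 39 members were above 0, beside 42.1% of the genes. The members' median was 0.23 with median-of-ratios or TMM factors and 0.21 in G1 cells. A ratio was counted as past the fold from 0.25 on the log2 scale, the fold limit of the study. By that limit 14 members were higher in cKO, against a background of 22.1% of all genes, and 5 were lower, against a background of 36.3%; the other 30 lay between. As shares of the members these were 28.6% upward and 10.2% downward, the first not far above the background and the second below it. The counts depended on the scaling. Median-of-ratios factors gave 23 members upward and 2 downward, against a background of 29.6% and 29.6% of genes, and TMM factors gave 22 and 3, against a background of 29.2% and 29.9%. The counting interval excluded 0 upward for 36 of the 49 members, against a background of 31.0% of genes, and downward for 7, against a background of 44.4%. An interval narrows as UMIs rise, and this background was not matched to the members for level, so no conclusion is drawn from the contrast.

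**Figure D1:**
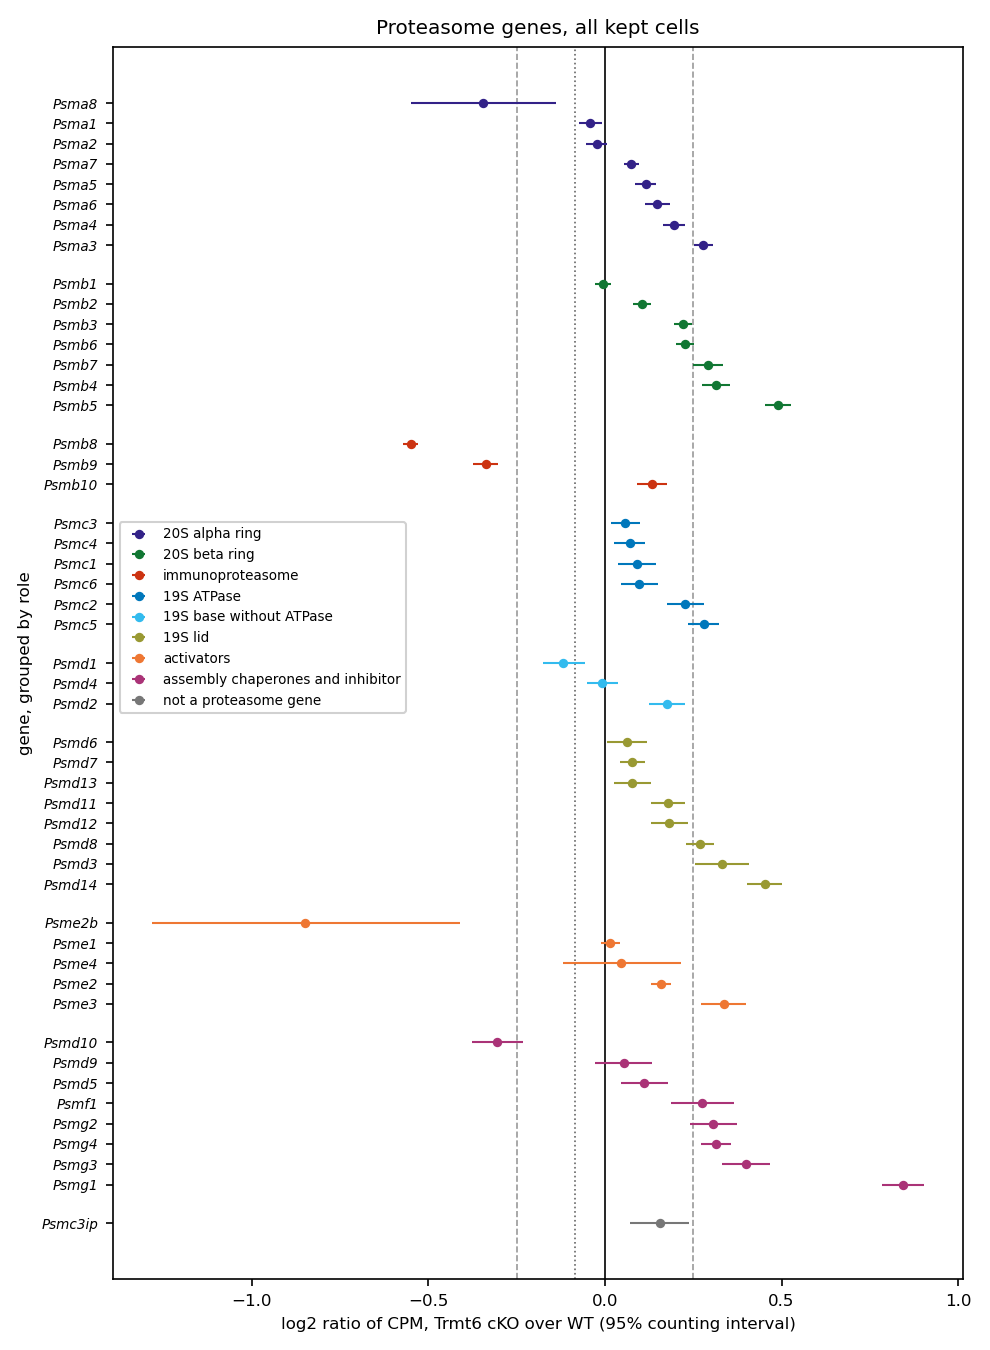
Log2 ratio of CPM, Trmt6 cKO over WT, for the 49 members, grouped by role and coloured by group. Points are ratios over all kept cells, bars are 95% counting intervals, dashed lines mark 0.25 in either direction and the dotted line marks the median of all genes at -0.08. Most core, cap and chaperone genes lie between 0 and 0.5, Psmb8 and Psmb9 lie below the lower dashed line, and Psmg1 lies farthest to the right at 0.84.

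Of the 8 alpha ring genes, 1 was past the fold upward and 1 downward, and the median log2 ratio was 0.09. The median was 0.17 or more under the other scalings, in thinned cells and in G1 cells, where it was 0.21. Psma3 had 344 CPM in WT and 417 in cKO (log2 ratio 0.28, interval 0.25 to 0.31). Psma8, which encodes the alpha subunit used in the testis, was barely detected, with 7.43 CPM in WT and 5.85 CPM in cKO (log2 ratio -0.35, interval -0.55 to -0.14), and was inside the fold in thinned cells (-0.14), in G1 cells (-0.20) and with median-of-ratios factors (-0.249). Without Psma8, the alpha genes lay between Psma1 at -0.04 and Psma3, and their UMIs together made 2306 CPM in WT and 2487 CPM in cKO.

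In the beta ring, Psmb5 stood out. This gene encodes the chymotrypsin-like subunit, the site at which most proteasome inhibitors act. It had 187 CPM in WT (interval 183 to 191) and 262 CPM in cKO (259 to 266), so the log2 ratio was 0.49 (0.45 to 0.53). The library levels did not overlap, and among all members only Psmg1 had a higher ratio. Psmb7, which encodes the trypsin-like subunit, had 150 CPM in WT and 183 CPM in cKO (0.29, interval 0.25 to 0.33). Psmb6, for the caspase-like subunit, had 410 and 480 CPM (0.23, interval 0.20 to 0.25), just inside the fold. Psmb1, which encodes a structural subunit, was level at 530 and 528 CPM, with a log2 ratio of -0.01 whose sign depended on the scaling. Of the 7 beta genes 3 were past the fold upward and none downward.

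The immunoproteasome genes moved apart from these partners. Psmb8 had 752 CPM in WT (interval 743 to 760) and 513 CPM in cKO (509 to 518), with a ratio on the log2 scale of -0.55 (-0.57 to -0.53), which made it 1.46-fold higher in WT. Psmb9 had 234 CPM in WT (229 to 239) and 185 CPM in cKO (182 to 188), which gives -0.34 (-0.37 to -0.30). It stayed below 0 but inside the fold with median-of-ratios factors (-0.24), with TMM factors (-0.24) and in G1 cells (-0.20). Psmb10 went the other way, with 150 CPM in WT and 164 CPM in cKO (0.13, interval 0.09 to 0.18). The 3 genes summed to 1135 CPM in WT and 863 CPM in cKO. With every cell thinned to 2000 UMIs, Psmb8 was detected in 73.9% of WT and 62.2% of cKO cells, and Psmb5 in 29.3% and 38.9%. A bulk sum of this kind does not tell fewer transcripts per cell from fewer cells with the gene, and the same shift appears by cluster and by cell below.

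Each immunoproteasome gene can be set against the gene whose product it replaces, which removes the scaling between libraries. UMIs of Psmb8 per UMI of Psmb5 were 4.02 in WT and 1.96 in cKO. The difference of their log2 ratios was -1.04 (interval -1.08 to -0.997). UMIs of Psmb9 per UMI of Psmb6 were 0.570 in WT and 0.386 in cKO, a difference of -0.56 (-0.61 to -0.52). For Psmb10 and Psmb7 the values were 0.999 and 0.895, a difference of -0.16 (-0.22 to -0.10). All 3 pairs were thus shifted toward the constitutive gene in the cKO library, by an amount that ran from large to small in this order. The level of one gene over another also carries how well each 3′ end is captured, so only its change between libraries is read here. Taking the 6 catalytic genes together, the immunoproteasome genes held 60.3% of their UMIs in WT (exact binomial interval 60.0 to 60.6) and 48.2% in cKO (48.0 to 48.5).

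**Figure D2:**
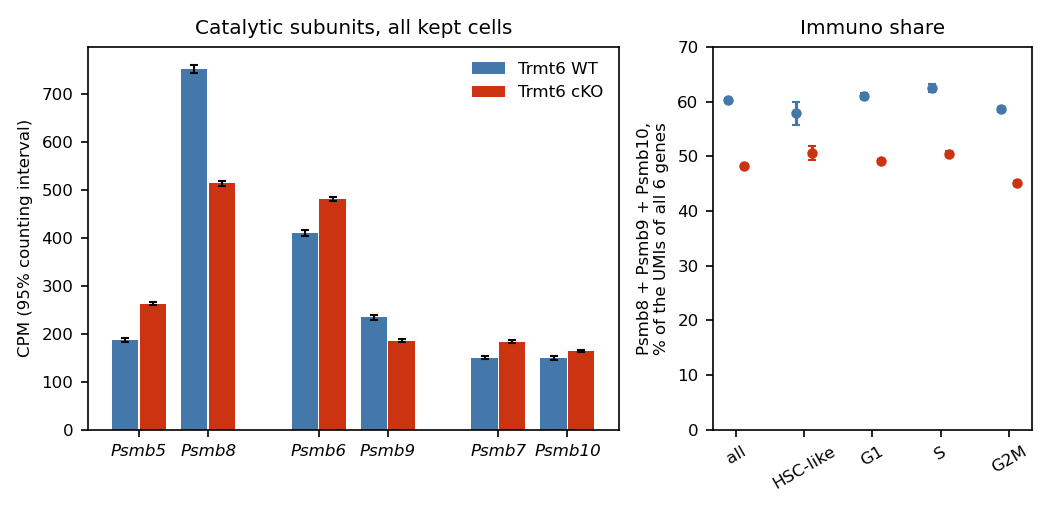
Left, CPM of the constitutive catalytic genes and of the immunoproteasome genes that replace them, in Trmt6 WT (blue) and cKO (red), with 95% counting intervals. Right, the percentage of the UMIs of all 6 genes that came from Psmb8, Psmb9 and Psmb10, over all kept cells, in HSC-like cells and by cell cycle phase, with exact binomial intervals; the WT point lies above the cKO point in each, at 60.3% and 48.2% over all cells.

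The cap genes among the members were mostly shifted upward by small amounts. All 6 ATPase genes were above 0, with a median of 0.09. Psmc5, which encodes the Rpt6 ATPase, had 134 CPM in WT and 162 CPM in cKO (0.28, interval 0.24 to 0.32) and was the only ATPase gene past the fold. Psmc3 had the lowest ATPase ratio, with 157 and 163 CPM (0.06, interval 0.02 to 0.10). The base genes outside the ATPase ring were close to even, at a median of -0.01. They ran from Psmd1, a scaffold of the base, with 81.6 CPM in WT and 75.3 in cKO (-0.12, interval -0.18 to -0.06), to Psmd2, its partner scaffold, at 102 and 115 CPM (0.18, interval 0.12 to 0.23). Psmd1 was above 0, at 0.06, when cells were thinned, and the median of the base genes turned above 0 under each other scaling of the libraries.

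All 8 lid genes among the members were above 0 as well, with a median of 0.18 and 3 past the fold. The gene of a further lid subunit, Shfm1 (also named Sem1), falls outside the symbol rule and went the other way. It had 968 CPM in WT and 798 CPM in cKO (-0.28, interval -0.30 to -0.26), past the fold downward. In WT it exceeded the 8 members together, which summed to 947 CPM in WT and 1083 CPM in cKO. Psmd14 encodes the enzyme of the lid that cuts ubiquitin chains from the substrate. Its level was 106 CPM in WT against 145 CPM in cKO (log2 ratio 0.45, interval 0.40 to 0.50); only Psmg1 and Psmb5 were higher. Psmd6, another lid subunit, had the lowest ratio of the 8 lid members, with 84.0 and 87.7 CPM (0.06, interval 0.01 to 0.12). The 32 members of the alpha ring, the constitutive beta ring, the base and the lid, without Shfm1, are here called the standard 26S genes. Of these, 26 were above 0, 8 were past the fold upward, and 1, Psma8, was past it downward. They summed to 6605 CPM in WT against 7318 CPM in cKO, which gives 0.15 on the log2 scale.

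The activators did not share a direction. Psme1 and Psme2 encode the PA28 ring, which opens the core without ubiquitin and, like the immunoproteasome, answers to interferon gamma. Psme1 was level, with 367 CPM in WT and 370 CPM in cKO (0.02, interval -0.01 to 0.04), and Psme2 had 321 and 358 CPM (0.16, interval 0.13 to 0.19). Psme2 was past the fold upward in G1 cells (0.33), in thinned cells (0.25), with each cell scaled before averaging (0.27) and with median-of-ratios (0.26) or TMM factors (0.25). Neither followed Psmb8 and Psmb9 downward. Psme3, for the nuclear activator PA28 gamma, had 64.0 and 80.8 CPM (0.34, interval 0.27 to 0.40). Psme4, for the activator PA200, was low in both, at 10.0 and 10.3 CPM (0.05, interval -0.12 to 0.22). Psme2b, with 85 UMIs in WT and 97 in cKO, had the lowest ratio of all members, -0.85 (-1.28 to -0.41), and remains uncertain because of its near copy.

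Of the factors that assemble the particle, Psmg1 had the highest ratio of all members. Psmg1 encodes a chaperone that pairs with the product of Psmg2 to build the alpha ring. It had 67.9 CPM in WT (interval 65.4 to 70.4) and 122 CPM in cKO (120 to 124), 1.80-fold more (log2 ratio 0.84, interval 0.79 to 0.90). Psmg3, which with Psmg4 forms a further chaperone of the same ring, had 55.6 and 73.3 CPM (0.40, interval 0.33 to 0.47). Psmd10, the base chaperone also known as gankyrin, went the other way, with 56.6 and 45.8 CPM (-0.30, interval -0.38 to -0.23), though inside the fold when cells were thinned (-0.17) and with median-of-ratios factors (-0.21). In this group of 8, which also holds Psmd5, Psmd9 and the inhibitor Psmf1, 5 were past the fold upward and 1 downward, and the median was 0.29. In HSC-like cells, described below, 4 of the 8 were above 0 and their median was 0.12, beside 0.30 over all members there. Psmc3ip, outside the proteasome, had 38.4 and 42.7 CPM (0.15, interval 0.07 to 0.24).

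Position set Psmb8 and Psmb9 apart from Psmb10. In the GENCODE M21 annotation of GRCm38, Psmb9 (chr17:34181987-34187764, minus strand) and Psmb8 (chr17:34197721-34201454, plus strand) lie on either side of Tap1 in the MHC class II region, whereas Psmb10 lies on chromosome 8 (chr8:105935735-105938444, minus strand). Of 10 annotated genes within 50 kb of the stretch from Psmb9 to Psmb8, 8 were at 1 CPM or more. The stretch was drawn around Psmb8 and Psmb9 because they were low, so they are left out of the count. Of the other 6, 5 were past the fold downward and none upward, against a background of 36.3% and 22.1% of all genes. Tap2, which encodes a subunit of the peptide pump that feeds MHC class I, had 131 CPM in WT and 74.6 CPM in cKO (-0.81, interval -0.86 to -0.76). H2-DMa, of the class II peptide exchanger, had 335 and 147 CPM (-1.18), and H2-Ob, of its inhibitor, 43.5 and 6.61 CPM (-2.72). Among markers of cell types, those of monocyte or dendritic cells and of lymphoid progenitors were lower as well, whereas those of B cells were higher. The 10 monocyte or dendritic markers summed to 1185 CPM in WT and 656 CPM in cKO, with 6 lower, and the 9 detected markers of lymphoid-primed multipotent progenitors (LMPP) to 731 and 206 CPM, with 8 lower; none was at 0. The monocyte or dendritic-like cluster held 3.86% of WT and 1.64% of cKO cells. The 10 B cell markers summed to 74.1 CPM in WT and 98.3 CPM in cKO, with 9 higher and 1 lower, and 1 was at 0 in WT. The B cell-like cluster held 12 WT and 83 cKO cells. The part of these cells in the levels of the class II genes was not tested. Tap1, for the other pump subunit, was inside the fold at 63.7 and 55.4 CPM (-0.20, interval -0.27 to -0.13). The window and the class II genes were chosen after their values were seen. Tap1 overlaps Psmb9 on the opposite strand, and how strand entered the counting is not given in the sources used here.

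**Figure D3:**
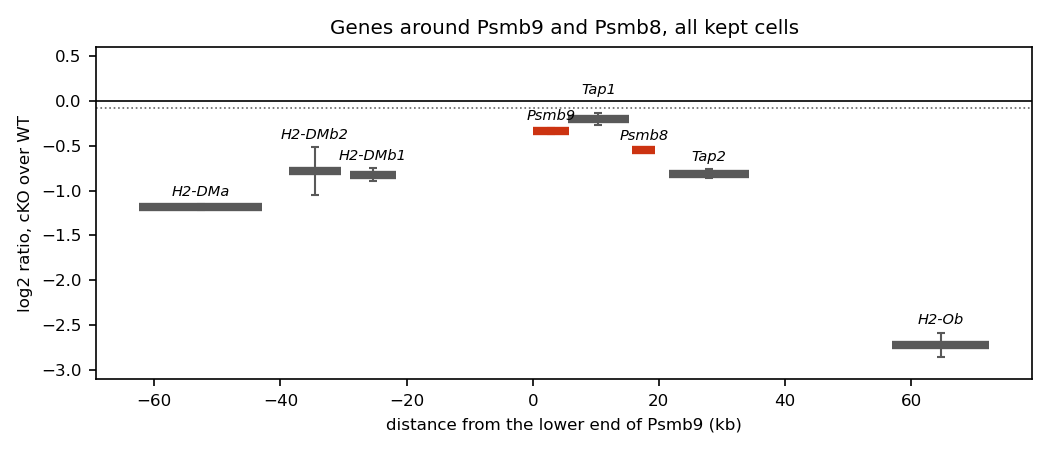
Log2 ratio, cKO over WT, of the 8 genes at 1 CPM or more within 50 kb of Psmb9 and Psmb8, against their distance in kb from the lower end of Psmb9; the bar of each gene spans its annotated length, vertical lines are 95% counting intervals, the dotted line is the median of all genes, and Psmb9 and Psmb8 are in red. Every bar lies below the dotted line, from Tap1 at -0.20 to H2-Ob at -2.72.

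Other genes of the pathway went in both directions. Of 30 genes in the matrices from a list of ubiquitin and proteasome partners, 8 were past the fold upward, 5 downward and 17 between, with a median of 0.09. As shares these were 26.7% and 16.7%, beside 22.1% and 36.3% of all genes. The highest were Rad23b, a shuttle for ubiquitinated proteins (75.3 CPM in WT, 107 CPM in cKO, 0.51), and Rps27a, a fusion of ubiquitin with a ribosomal protein (4610 and 6508 CPM, 0.50). Among those past the fold downward was Ddi2, whose product cleaves the transcription factor that drives proteasome genes (12.8 and 8.79 CPM, -0.55), though it was inside the fold in thinned cells (-0.22). The transcription factor genes themselves, Nfe2l1 at 19.2 and 19.6 CPM (0.03) and Nfe2l2 at 65.0 and 61.0 CPM (-0.09), stayed inside the fold. Pomp, the chaperone that matures the beta ring, was slightly lower, with 421 and 379 CPM (-0.15).

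Of the 12 genes on a list of antigen processing, none was past the fold upward and 5 were past it downward, with a median of -0.21. The share downward, 41.7%, was not far above the background of 36.3% of all genes. Irf8, a transcription factor of the myeloid and lymphoid lineages and a leading gene of the monocyte or dendritic-like cluster, had 192 CPM in WT and 12.6 CPM in cKO (-3.93). The MHC class I gene H2-K1 was inside the fold at 651 and 717 CPM (0.14). Of 17 type I interferon response genes, 4 were past the fold upward and 3 downward, with a median of -0.04. The shares were 23.5% and 17.6%, beside 22.1% and 36.3% of all genes. Ifitm3 had 537 and 1164 CPM (1.12) and Ifi35 47.1 and 62.8 CPM (0.41), whereas Ifi27l2a had 35.6 and 7.01 CPM (-2.34) and Trim30a 29.0 and 20.2 CPM (-0.52). Whether the interferon used to switch on the recombinase had a part in the level of the immunoproteasome genes was not tested.

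The proportions of the clusters, though not the cells within them, could be matched between the libraries. Clustering of both libraries together gave 20 clusters, of which 16 had at least 50 cells in each library, and 17 entered a comparison with the same mix of clusters in both. In that mix the log2 ratio was -0.50 for Psmb8 and 0.54 for Psmb5, and without the clusters of other lineages it was -0.56 and 0.48. Within clusters, Psmb5 and Psmg1 were past the fold upward in all 16, Psmb5 from 0.39 to 0.83 and Psmg1 from 0.54 to 1.18. Psmb8 was past the fold downward in 15 of 16, with a median of -0.52, and Psmb9 in 10 of 16. The clusters are parts of the cells summed above, where Psmg1 and Psmb5 had the highest ratios, so they are not separate support. The share of all genes past the fold in as many clusters is not given here. The share of Psmb8, Psmb9 and Psmb10 among the UMIs of the 6 catalytic genes was lower in cKO in 15 of 16 clusters, and the intervals of the libraries did not overlap in any of the 15. In all, 11 members were above 0 in every cluster, against a background of 6.59% of genes, and 2, Psmb8 and Psmd10, were below 0 in all but 1, against a background of 13.4%. These backgrounds were not matched for level, and the sign of a gene with few UMIs is less stable in small clusters.

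The exception, for Psmb8 and for the share alike, was cluster 14, which is named neutrophil-like from its markers and is also led by the basophil genes Prss34 and Mcpt8. It held 100 WT cells with a median of 4948 UMIs and 162 cKO cells with a median of 2049 UMIs. The 2 libraries held unlike cells there. The 10 neutrophil markers made 354041 CPM of its WT cells, with none at 0, and 16.1 CPM of its cKO cells, from 8 UMIs and with 7 at 0, so the name describes its WT cells. Prss34 had 2192 CPM in its WT and 5746 CPM in its cKO cells. The values below therefore set different cells side by side. In its WT cells the immunoproteasome genes summed to 503 CPM, beside 1144 CPM in the other WT cells, and in its cKO cells to 986 CPM, beside 862 CPM in the other cKO cells. The log2 ratio of this sum, cKO over WT, was thus 0.97 (interval 0.76 to 1.18), beside a median of 0.72 over all genes in the cluster. Of the catalytic UMIs in cluster 14, immunoproteasome genes held 52.5% among WT cells (48.3 to 56.7) and 63.9% among cKO cells (60.4 to 67.3), so the intervals lay apart in the direction opposite to the other clusters. The standard 26S genes summed to 3981 CPM in its WT cells and 5628 CPM in its cKO cells.

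**Figure D4:**
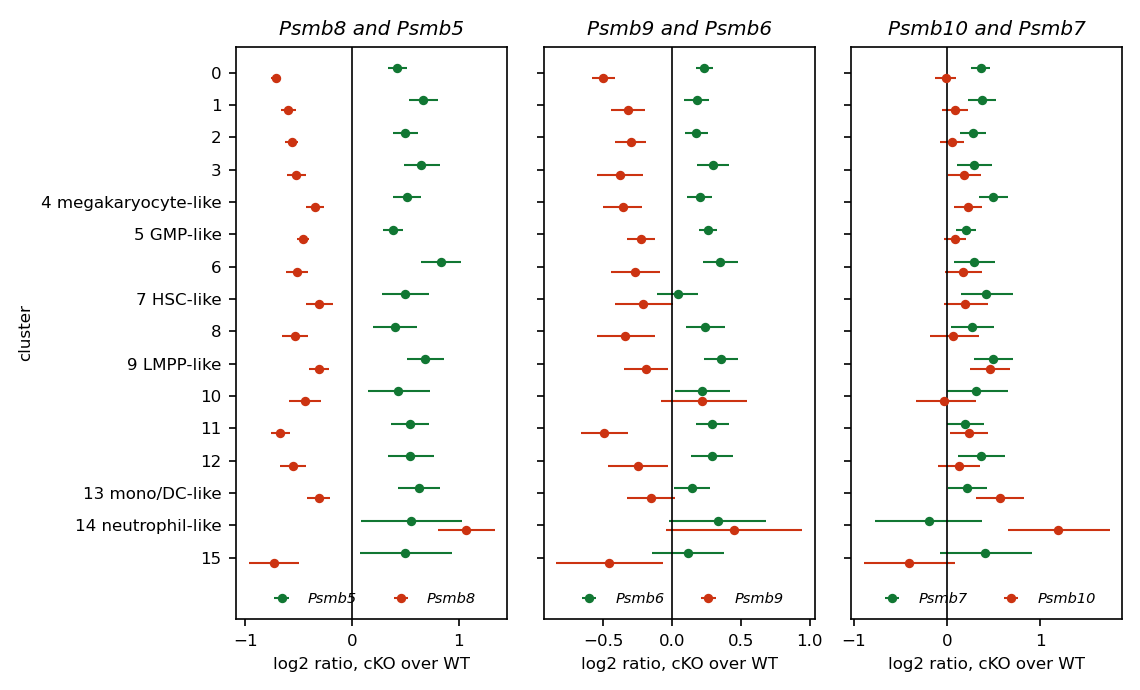
Log2 ratio, cKO over WT, in the 16 clusters with at least 50 cells in each library, for each immunoproteasome gene (red) and the constitutive gene it replaces (green), with 95% counting intervals. Psmb5 is right of 0 in every cluster and Psmb8 is left of 0 in all but cluster 14; Psmb10 and Psmb7 overlap in most clusters.

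HSC-like cells, the cluster led by Mllt3 and Pdzk1ip1, had 457 WT and 485 cKO cells. Here the members' median log2 ratio was 0.30, beside -0.20 over the 12019 genes at 1 CPM or more in these cells. Past the fold, 26 members were higher, against a background of 24.7% of genes, and 4 were lower, against a background of 46.6%. As shares these were 53.1% and 8.16% of the members. The standard 26S genes summed to 5709 CPM in WT and 6815 CPM in cKO (log2 ratio 0.26, interval 0.22 to 0.29). In both libraries this was below the sum in the other cells, 6633 CPM in WT and 7338 CPM in cKO. Psme3 had 34.0 CPM in WT and 76.1 CPM in cKO (1.15, interval 0.70 to 1.66), and Psmd10 had 84.2 and 48.6 CPM (-0.80, interval -1.15 to -0.43), both from 266 UMIs or fewer in a library.

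The catalytic genes of HSC-like cells kept the direction seen over all cells for Psmb8. It had 564 CPM in WT (interval 524 to 607) and 456 CPM in cKO (434 to 479), and Psmb5 had 165 and 233 CPM, so that the difference of their log2 ratios was -0.80 (-1.06 to -0.55). For Psmb9 against Psmb6 the difference was -0.25 (-0.50 to 0.01), and for Psmb10 against Psmb7 it was -0.22 (-0.58 to 0.14). Both intervals held 0, but this depended on how the cells were chosen. In cells with UMIs of 3 or more HSC markers after thinning, 1244 WT and 2109 cKO cells, the differences were -0.43 (-0.56 to -0.30) and -0.44 (-0.62 to -0.26), and neither interval held 0. For Psmb8 against Psmb5 the difference in these cells was -0.93 (-1.06 to -0.80). The immunoproteasome share of the catalytic UMIs came to 57.8% in WT (55.7 to 60.0) against 50.6% in cKO (49.3 to 51.9). Whether the shift in HSC-like cells differs from that in other clusters was not tested.

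Levels also varied from cluster to cluster within a library. Among clusters with at least 50 cells in each library, the standard 26S genes were highest in the GMP-like cluster (7638 CPM in WT, 8152 CPM in cKO), and their log2 ratio was lowest there, at 0.09. Of the same clusters, the monocyte or dendritic-like one had the highest immunoproteasome sum, 1349 CPM in WT against 1189 CPM in cKO. A small cluster of 27 WT and 33 cKO cells was led by the interferon genes Ifit1, Isg15 and Irf7. Its immunoproteasome sum was 1384 CPM in WT (interval 1162 to 1636), beside 1135 CPM in the other WT cells, and 1200 CPM in cKO (1071 to 1340), beside 862 CPM in the other cKO cells. Psme1 was also higher in it, at 556 CPM against 366 CPM in WT and at 515 CPM against 370 CPM in cKO. Psmb8 and Psma8 were among the genes used to find the clusters, so these levels are a description.

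By cell cycle phase, 53.7% of WT and 54.8% of cKO cells were called G1 after thinning to 2000 UMIs. The standard 26S genes summed to 6169 CPM in WT and 7218 CPM in cKO in G1 (log2 ratio 0.23), to 6836 and 7448 CPM in S (0.12) and to 6930 and 7390 CPM in G2M (0.09). The 2 libraries thus lay farthest apart in G1, where WT was lowest. The summed level of the 3 immunoproteasome genes was lower in cKO in each phase, with log2 ratios of -0.31 in G1, -0.40 in S and -0.50 in G2M. Psmb8 and Psmb9 were lower in each, whereas Psmb10 was at 0.10 in G1, 0.20 in S and 0.05 in G2M, where its interval held 0. The difference between Psmb8 and Psmb5 was nearly the same in all of them, at -1.05, -1.04 and -1.07. Differences between phases were not tested.

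At the level of single cells, after thinning each cell to 2000 UMIs and leaving out 190 WT and 98 cKO cells that were shallower, a WT cell had 12.5 ± 4.28 UMIs of the standard 26S genes (SD over 7952 cells) and a cKO cell 14.3 ± 4.35 (8379 cells). Immunoproteasome genes gave 2.18 ± 1.57 UMIs per WT cell and 1.70 ± 1.37 per cKO cell, and 13.0% of WT and 19.3% of cKO cells had none. The distributions overlapped over most of their range, and neither library showed a separate peak. These cells share a library and are not replicates.

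**Figure D5:**
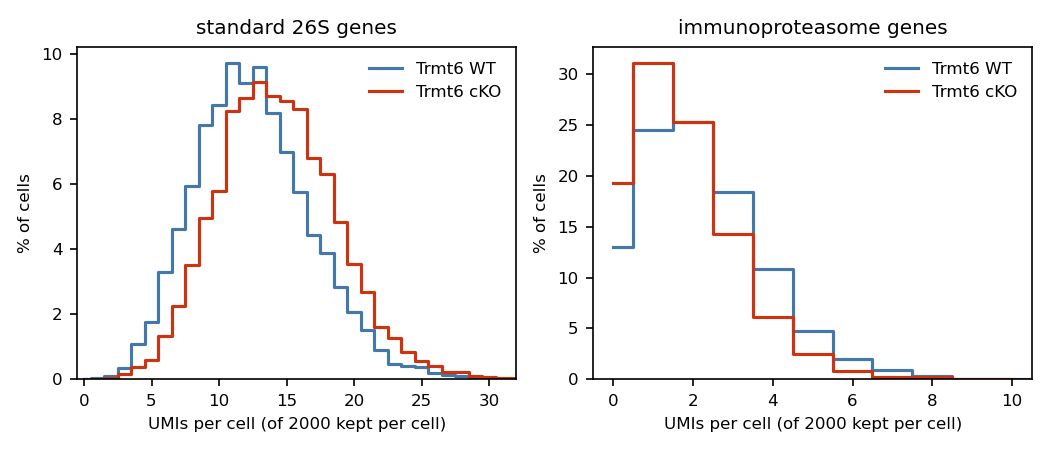
Percentage of cells by their number of UMIs of the 32 standard 26S genes (left) and of Psmb8, Psmb9 and Psmb10 (right), each cell thinned to 2000 UMIs, in 7952 Trmt6 WT cells (blue) and 8379 cKO cells (red). The cKO curve lies to the right of WT for the standard genes (mean 14.3 against 12.5 UMIs) and to the left for the immunoproteasome genes (mean 1.70 against 2.18 UMIs).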

How the data were processed

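Single-cell RNA of sorted HSPCs was measured in 1 Trmt6 WT and 1 Trmt6 cKO library. The deposited counts are whole-number UMI counts per gene and cell, produced by the authors with Cell Ranger (6.0.0) and mm10, per the labels. The labels name version 2 of the 3′ kit and the study's methods version 3. The members and gene lists were chosen with earlier results of these data known.

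Cells were kept after the study's limits: over 200 genes, under 4000 (WT) or 4500 (cKO) genes, under 10% (WT) or 5% (cKO) mitochondrial and under 5% hemoglobin UMIs. Of the 8869 WT and 9260 cKO barcodes, 8763 and 9151 passed. Likely doublets, 621 WT and 674 cKO cells, were removed by their share of simulated doublets among 50 neighbours, at 0.8% per 1000 barcodes. Clusters were found in R 4.3.3 with sctransform 0.4.2 and Seurat 5.3.0 (3000 features, 30 dimensions, resolution 0.8). A cluster was named for the cell type with the most markers among its 10 leading genes. That type also needed at least 3 markers raised by more than 1 on the log2 scale, and as many as any other type. Phases were called with Seurat on cells thinned to 2000 UMIs.

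UMIs were summed per library and scaled to CPM. Log2 ratios used 0.5 prior counts, and a gene entered the counts from 1 CPM in either library. Intervals were exact: Poisson for CPM, conditional binomial for a ratio and Clopper-Pearson for a share. The interval of a difference of log2 ratios used the normal approximation to counting error. UMIs from PCR-amplified libraries count molecules, but intervals still leave out the variation between mice. On counts simulated for the 11328 genes at 1 CPM or more in WT, 95.3% of true ratios lay within their interval. These counts held Poisson error alone, the error the intervals assume. The simulation therefore checks the calculation and not the spread between cells, libraries or mice. Scaling alternatives used the TMM factor of edgeR 4.0.16 and median-of-ratios factors; other cell filters, G1 cells and fixed mixes of clusters were also tried. Named members were all immunoproteasome and activator genes, Psmb5, Psmb6 and Psmb7, the extremes of each group, and the 5 highest and 5 lowest overall; from each other list, the 2 highest and 2 lowest at 10 CPM or more were named, except for 2 genes that are not reported here. Nfe2l1, Nfe2l2, Pomp and Shfm1 and the neighbours of Psmb8 were added after their values were seen. Tables and plots were made with Python 3.11.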

Additional observations from a re-analysis of the deposited data

How the results depend on the processing

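A factor for a whole library cannot move a difference between 2 genes, so the differences are left out under those settings. Of the other 169 recomputed main results, 113 stayed within the interval or within 1.5 times the count, and Psmb8 minus Psmb5 over all cells did so under all 8 settings that could move it. None of the 19 members past the fold over all cells changed sign under the 11 settings recomputed for each member, and 7 members inside it did, Psma1, Psma2, Psmb1, Psmd1, Psmd4, Psme1 and Psme4. A factor for a whole library moved every ratio by only 0.08 to 0.10, so it could not change the sign of a member past the fold. The median of the base turned from -0.01 to above 0 under the scalings, in thinned cells and in G1 cells (0.04). The other values moved mostly with scaling. Median-of-ratios factors raised the median of all genes by 0.10 on the log2 scale and gave 23 members past the fold upward and 2 downward, with median log2 ratios of 0.23 for the members, 0.19 for the alpha ring, 0.32 for the beta ring, -0.24 for the immunoproteasome, 0.19 for the ATPases, 0.0900 for the base, 0.28 for the lid and 0.39 for the assembly group. TMM gave 22 upward and 3 downward, and in the same order 0.23, 0.19, 0.32, -0.24, 0.19, 0.0855, 0.27 and 0.38. A total that left out mitochondrial genes and genes of ribosomal proteins gave 0.22, 0.18, 0.31, -0.25, 0.18, 0.0762, 0.26 and 0.37. With each cell scaled before averaging, the medians were 0.20 for the members, 0.17 for the alpha ring, 0.28 for the beta ring and -0.28 for the immunoproteasome, and the differences were -0.51 for Psmb9 minus Psmb6 and -0.24 for Psmb10 minus Psmb7. Thinned cells gave 3 members downward, and 0.18 for the alpha ring, 0.28 for the beta ring, 0.15 for the ATPases and 0.0629 for the base. G1 cells gave 3 downward, 0.21 for the members, 0.21 for the alpha ring, 0.32 for the beta ring, -0.20 for the immunoproteasome, 0.20 for the ATPases and 0.27 for the lid, with -0.48 for Psmb9 minus Psmb6 and -0.26 for Psmb10 minus Psmb7. The same mix of clusters gave 0.14 for the alpha ring, 0.28 for the beta ring and -0.30 for the immunoproteasome. A minimum of 10 CPM left 3 members downward, since Psma8 and Psme2b are below it, and a fold of 0.5 left 1 upward and 2 downward. In HSC-like cells taken at resolution 0.4, a wider cluster of 1892 WT and 1443 cKO cells, Psmb8 minus Psmb5 was -1.13 and Psmb9 minus Psmb6 was -0.57. At resolution 1.2 the interval of Psmb9 minus Psmb6 left out 0 (-0.26, interval -0.51 to -0.0022). The cause of these movements was not tested. No paired analysis was possible because each group has 1 library. Few UMIs limited Psma8, Psme2b, Psme4, the HSC-like cells and the small clusters, and nothing here separates genotype from library.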
